A study of Mus musculus with 17 samples.

Results

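The cell cycle genes described here are 50 genes whose products copy DNA or carry out mitosis. They were listed by symbol, with earlier results of these data known, by a rule that sets no threshold on a measured value. Of the 50, 48 had a probe set of their own among 17097 genes measured. The other members, Ccnb1 (cyclin B1) and Nuf2 (a kinetochore subunit), were not analysed here. Of the measured members, 18 act in DNA replication and 30 in mitosis.

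All cells came from male NOD mice, an inbred strain in which lymphocytes infiltrate the lacrimal gland and which serves as a model of Sjögren's syndrome. The labels name no added allele and no drug. Gland cells were sorted from mice 16 weeks old in 3 groups: epithelial cells, taken as CD45- CD326+ (3 arrays), B cells, taken as B220+ CD3- leukocytes (4 arrays), and CD4 T cells, taken as CD3+ CD4+ leukocytes (4 arrays), the leukocytes being negative for NKp46, CD11b and CD11c. B cells (3 arrays) and CD4 T cells (3 arrays) of the spleen served as steady-state controls. Spleen donors are given as 16 weeks old in the sample labels and as 4 weeks old in the design text. If the second holds, age and tissue cannot be told apart. The gland suspension was digested with enzymes, whereas the labels mention none for splenocytes. The labels do not say that the samples of a group came from separate animals. A p-value here therefore rests only on the spread among arrays within groups, pooled over the 5 groups. Part of that spread may be technical.

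Values are log2 expression values, with a median of 4.71 over all probe sets and arrays. They carry no detection call, and levels of different genes come from different probes and are not compared. The B cell marker list averaged 9.67 in gland B and 9.81 in spleen B cells, and no more than 4.85 in either CD4 T cell group. The T cell list averaged 10.78 in gland CD4 T and 10.66 in spleen CD4 T cells, and no more than 5.24 in either B cell group. Epithelial replicate 1 stood apart: Ptprc, which encodes the leukocyte protein CD45, read 9.62 there and 2.42 and 2.36 in the other epithelial arrays. Epithelial markers averaged 6.60 in gland B and 6.80 in gland CD4 T cells, against 4.23 in spleen B and 4.25 in spleen CD4 T cells.

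A cell that divides first licenses its replication origins by loading the MCM helicase, then makes nucleotides and copies its DNA, and then condenses its chromosomes and separates them on a spindle. E2F factors drive many of the replication genes, and the mitotic genes are induced later in the cycle through the MuvB complex with B-Myb and FoxM1. In lymphoid tissue, transcripts of these genes come mainly from activated, dividing lymphocytes and from developing precursors, whereas most resting lymphocytes hold little of them.

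Over the 48 members, the mean log2 value was lowest in gland epithelium and highest in gland CD4 T cells. It was 5.57 ± 0.13 in epithelium (SD, n = 3), 5.75 ± 0.12 in gland B cells (n = 4) and 6.39 ± 0.16 in spleen B cells (n = 3). In CD4 T cells it was 6.67 ± 0.09 in the gland (n = 4) and 6.36 ± 0.08 in the spleen (n = 3). The arrays of epithelium and gland B cells overlapped in this mean, as did those of spleen B and spleen CD4 T cells. Replication and mitosis genes differed in this order: over the replication genes epithelium, at 5.99 to 6.40, lay below every gland B array, at 6.66 to 6.86, while over the mitosis genes epithelium, at 5.08 to 5.22, lay within the range of gland B cells, at 5.03 to 5.37. The arrays of gland and spleen B cells did not overlap in either mean. In bulk samples of this kind, fewer dividing cells and less RNA per cell cannot be told apart.

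**Figure D1:**
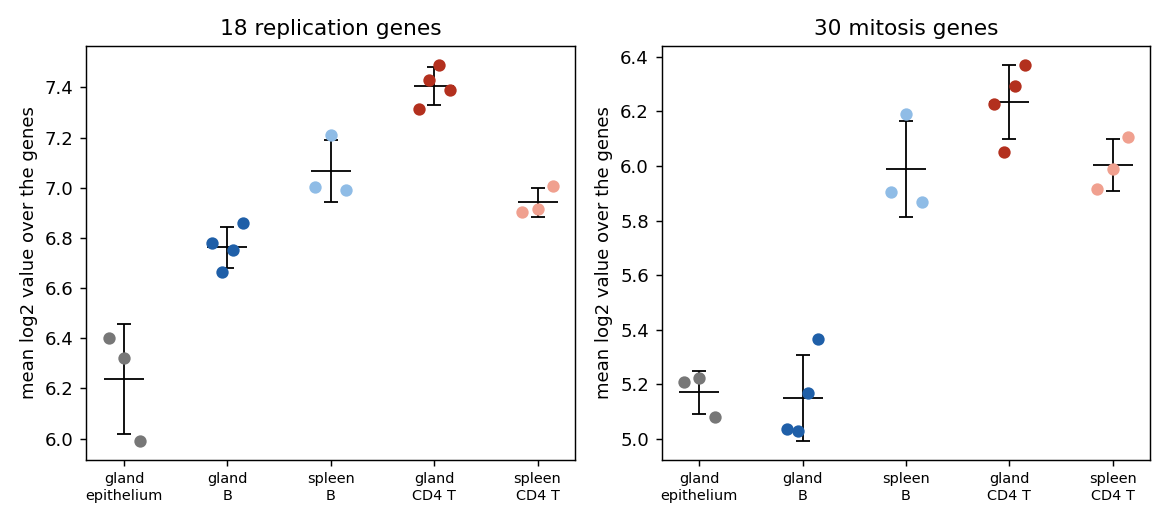
Mean log2 value over the 18 replication genes (left) and the 30 mitosis genes (right) in each array, with group mean and SD as bars. Gland B arrays lie below spleen B arrays in both panels, and gland CD4 T arrays lie highest for the replication genes.

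Among the lymphocyte groups, gland CD4 T cells had the highest group mean for 33 of the 48 members, and gland B cells the lowest for 38. The same held for 21.2% and 22.4% of all genes. Of the mitosis genes, 27 of 30 were lowest in gland B cells, and of the replication genes 11 of 18. No member was lowest in gland CD4 T cells, while 32.2% of all genes were.

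**Figure D2:**
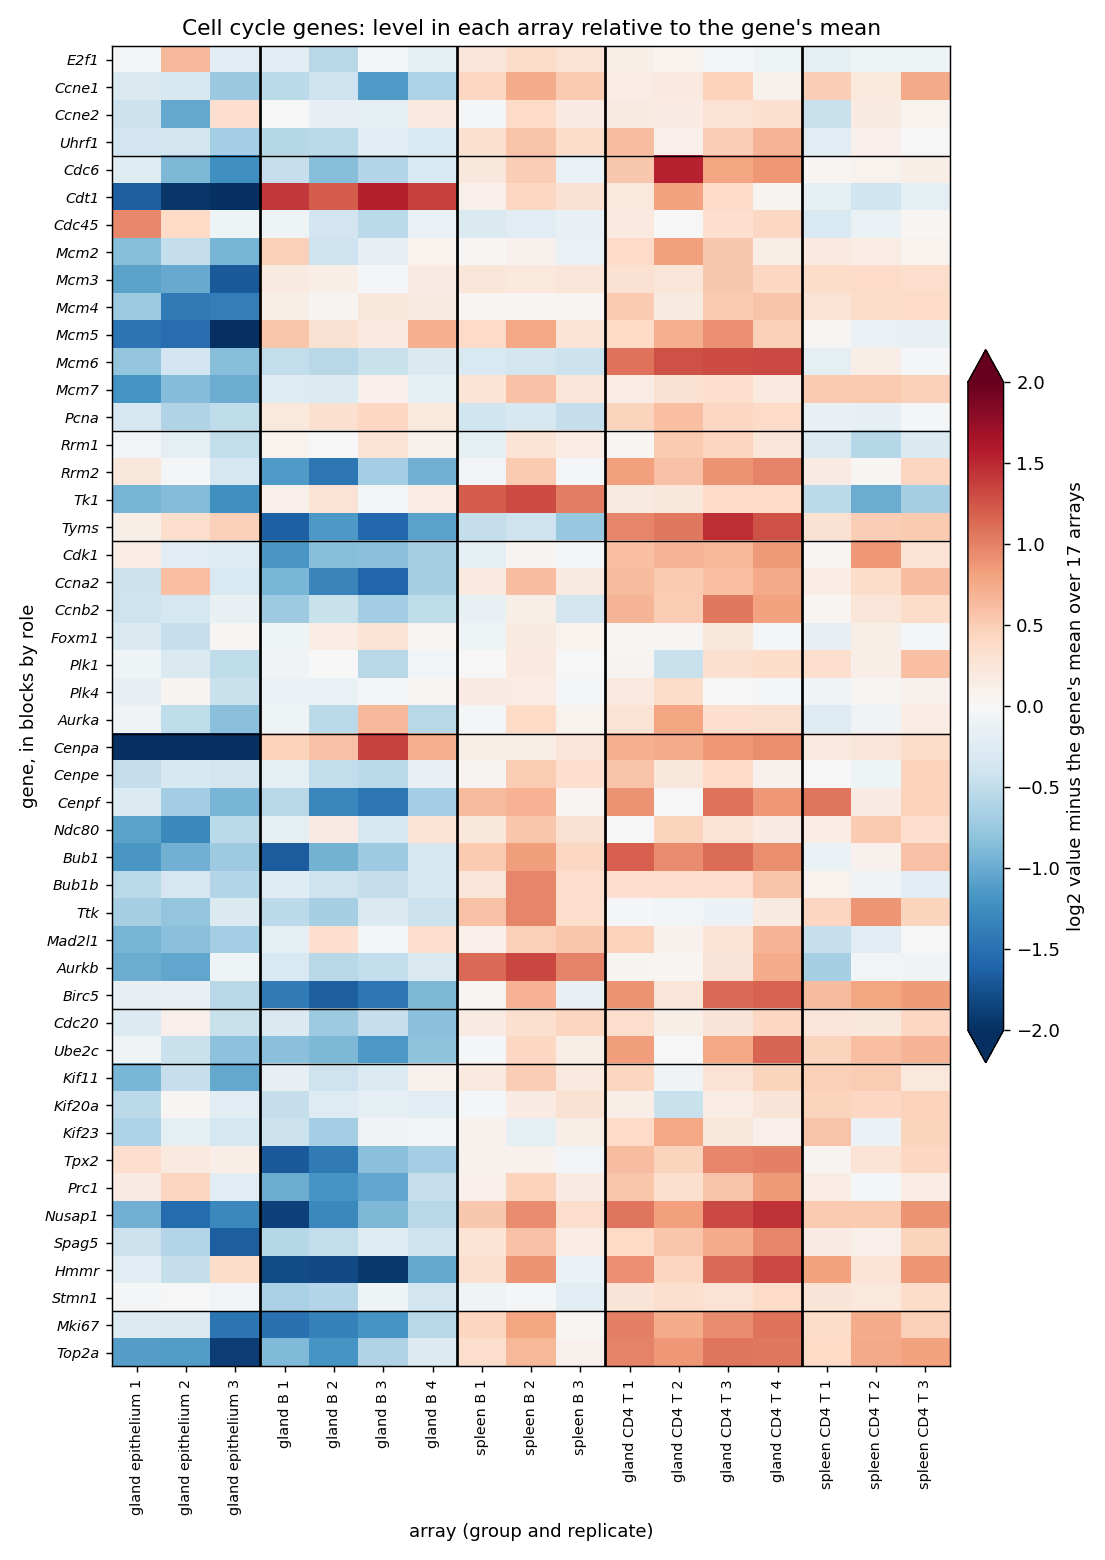
Log2 value of each measured member in each of the 17 arrays, minus the gene's mean over all arrays, in blocks by role (rows) and by group (columns). Of the lymphocyte groups, gland B cells are lowest for 27 of the 30 mitosis genes, Cenpa and Cdt1 are lowest in epithelium, and Mcm6 is highest in gland CD4 T cells.

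The first question was how B cells of the gland differ from spleen B cells. Of the 48 members 16 fell in gland B cells and 1 rose, where a call needed a limma p under 0.05 after Benjamini-Hochberg adjustment over the whole table and at least a 2-fold change. Of all genes 1.60% were called lower and 2.58% higher. The members' median log2 change was -0.59, against 0.00 for all genes. The mitosis genes made up 13 of the 16, with a median of -0.85 over all 30, and the replication genes 3, with a median of -0.17 over all 18. By adjusted p alone 28 members were lower and 3 higher, where all genes gave 9.87% and 7.79%.

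Markers of other cells moved in the same comparison. Of 8 measured genes of immature B cells, 6 were called lower in gland B cells and the list averaged 4.01 to 4.30 there, against 5.63 to 5.68 in spleen B cells. Rag1 and Vpreb3, which act in B cell precursors, changed by -1.46 and -1.62. Of 5 genes of red cell precursors, 1 was lower, Hba-a1 at -2.35, and the list ran from 5.56 to 5.98 in gland B against 6.21 to 6.43 in spleen B cells. Of 6 germinal centre genes 1 was lower, and the list ran from 4.38 to 4.98 in gland B against 4.61 to 5.29 in spleen B cells. Of 5 plasmablast genes 1 was lower, and the list ran from 7.64 to 7.91 in gland B against 8.22 to 8.55 in spleen B cells. Of 5 regulatory T cell genes 1 was higher, and the list ran from 5.43 to 5.63 in gland B against 5.31 to 5.50 in spleen B cells. Of 5 epithelial genes 3 were called higher in gland B cells, and of 3 genes of plasmacytoid dendritic cells 1, with list means of 9.01 in gland B and 8.14 in spleen B cells. The part of these cells in the members' changes was not tested.

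Of the 4 genes that start DNA synthesis, 1 was called. Ccne1, which encodes cyclin E1, the partner of CDK2 at the entry into S phase, read 5.12, 5.26, 4.54 and 5.06 in gland B cells and 6.08, 6.41 and 6.19 in spleen B cells. The groups did not overlap, and the log2 change was -1.23 ± 0.17 (SE; limma adjusted p = 0.000143). Uhrf1, which guides DNA methylation to new strands, stood at -0.82 and E2f1 at -0.54, both short of the fold limit. Ccne2, the other cyclin E gene, did not pass at -0.21 (limma adjusted p = 0.615).

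The origin and replication fork genes had no member called lower. Cdt1, which loads the MCM helicase onto origins, was the member called higher, with 10.52, 10.32, 10.67 and 10.47 in gland B and 9.22, 9.52 and 9.42 in spleen B cells. The change was 1.11 ± 0.31 (limma adjusted p = 0.0211), and another of its 3 probe sets was called higher too, at 1.35. The SE pools the spread of all 5 groups, and the SD of Cdt1 was 0.14 in gland B, 0.15 in spleen B and 0.996 in epithelium. The Cdt1 call was lost without gland B replicate 3 (limma adjusted p = 0.0507) and without spleen B replicate 1 (0.0798) or 3 (0.058). Pcna, the sliding clamp of the DNA polymerases, stood at 0.69 ± 0.08, below the fold limit. The helicase genes Mcm2, Mcm3, Mcm4, Mcm5 and Mcm6 lay between -0.12 and 0.10, and Mcm7 at -0.52.

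Of the nucleotide supply genes 2 of 4 fell. Rrm2, the regulated subunit of ribonucleotide reductase, read 4.54, 4.24, 5.0 and 4.72 in gland B and 5.63, 6.20 and 5.64 in spleen B cells, a change of -1.20 ± 0.19 (limma adjusted p = 0.000377). Tk1, the thymidine kinase of S phase, read 6.73, 6.92, 6.60 and 6.79 in gland B and 7.84, 7.93 and 7.65 in spleen B cells, a change of -1.05 ± 0.12. Neither gene's groups overlapped. Rrm1, the constant subunit of the same reductase as Rrm2, stood at 0.04. The Tk1 change lay close to the fold limit and was -0.99 without gland B replicate 3 and -0.98 without spleen B replicate 2, where it was no longer called.

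Among the mitotic entry genes 1 of 7 was called. Ccna2, which encodes cyclin A2, read 6.05, 5.65, 5.38 and 6.30 in gland B and 7.15, 7.57 and 7.14 in spleen B cells, with no overlap and a change of -1.44 ± 0.24 (limma adjusted p = 0.000554). Another probe set was also called lower, at -1.04. Cdk1, the kinase that drives mitosis, stood at -0.82 and Ccnb2 at -0.47. Foxm1 (0.04), Plk4 (-0.16), Plk1 (-0.24) and Aurka (-0.28) did not pass the test.

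The centromere and spindle checkpoint genes had 5 of 10 members lower, the most of any role. Aurkb, the kinase of the chromosomal passenger complex, read 3.72, 3.47, 3.54 and 3.73 in gland B and 5.16, 5.36 and 5.02 in spleen B cells, a change of -1.56 ± 0.23. Birc5, which encodes the survivin subunit of the same complex, read 6.31, 6.06, 6.27 and 6.81 in gland B and 7.74, 8.41 and 7.56 in spleen B cells, a change of -1.54 ± 0.24. Bub1, a checkpoint kinase at kinetochores, read 1.86, 2.59, 2.80 and 3.20 in gland B and 4.06, 4.37 and 3.95 in spleen B cells, a change of -1.51 ± 0.24. In none of these genes did gland and spleen B cells overlap. Cenpf (-1.45), a kinetochore protein, and Ttk (-1.11), the checkpoint kinase MPS1, were called as well. Cenpa, the histone variant that marks centromeres, stood on the other side of 0, at 0.61 ± 0.15, below the fold limit, while its other probe set was called higher at 1.08 (limma adjusted p = 0.00632).

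Ube2c, the ubiquitin-conjugating enzyme of the anaphase-promoting complex, read 5.43, 5.37, 5.11 and 5.46 in gland B and 6.24, 6.68 and 6.39 in spleen B cells, a change of -1.09 ± 0.22. Cdc20, an activator of that complex, stood at -0.88, short of the fold limit. Without spleen B replicate 2, the highest spleen B array for Tk1, Ube2c, Ttk and Top2a, the calls of these genes were lost (Ube2c at -0.97, Ttk at -0.94 and Top2a at -0.95), and that of Top2a was also lost without gland B replicate 2 (-0.95).

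Spindle and cytokinesis genes had 4 of 9 members lower and no member above 0. Hmmr, which encodes a spindle-associated hyaluronan receptor, read 3.03, 3.02, 2.90 and 3.79 in gland B and 5.13, 5.72 and 4.69 in spleen B cells. The change of -1.99 ± 0.29 was the largest of the members and came to 3.99-fold (limma adjusted p = 0.000177). None of the other probe sets of Hmmr was called. Nusap1, which bundles spindle microtubules, read 4.52, 5.10, 5.49 and 5.83 in gland B and 6.93, 7.33 and 6.74 in spleen B cells, a change of -1.77 ± 0.26. Tpx2, the activator of Aurora A on the spindle, read 3.42, 3.69, 4.27 and 4.41 in gland B and 5.18, 5.18 and 5.04 in spleen B cells, a change of -1.19 ± 0.20. Every gland B array lay below every spleen B array in these genes. Prc1, which builds the midzone of the spindle, was also called, at -1.16. Stmn1 (-0.32), Kif20a (-0.43) and Kif23 (-0.31) did not pass.

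Both genes of chromosome structure fell. Mki67, which encodes the proliferation antigen Ki-67 of the mitotic chromosome surface, read 5.92, 6.06, 6.22 and 6.85 in gland B and 7.84, 8.19 and 7.43 in spleen B cells. The groups did not overlap, and the change was -1.56 ± 0.27 (limma adjusted p = 0.00093), or 2.94-fold. Top2a, the topoisomerase that untangles sister chromatids, read 5.62, 5.31, 5.90 and 6.22 in gland B and 6.84, 7.17 and 6.58 in spleen B cells, a change of -1.10 ± 0.22.

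The calls depended on the probe set. Of the 17 called members 12 had several probe sets, and in 3 of these (Ccna2, Prc1 and Cdt1) another one was called in the same direction, while none was called in the opposite one. Counting a member where any of its probe sets was called gave 2 higher and 17 lower, with Cenpa and Bub1b added. With a gene's probe sets averaged, 8 members were called in place of 17. Hmmr then stood at -0.77, Nusap1 at -0.87, Bub1 at -0.84, Cenpf at -0.53, Tpx2 at -0.91, Rrm2 at -0.89, Ttk at -0.78, Top2a at -0.37 and Cdt1 at 0.87, and none of these was called. The other probe set of Nusap1 stood at 0.02, but it read only 2.21 to 2.54 over all arrays, against a median of all values of 4.71. Those of Bub1 (mean 1.24) and Cenpf (2.94 and 2.73) and the uncalled one of Cdt1 (1.87) were below that median in every array. Readings this low may lie near background, so these probe sets cannot decide whether the genes changed. Those of Ttk (4.82), Rrm2 (4.62), Tpx2 (4.40) and Top2a (4.66 and 4.21) averaged nearer the median. The other probe sets of Hmmr averaged 4.26, 4.22, 4.14 and 2.70. They stood at -0.53, -0.22, -0.88 and -0.24 in this order, and none was called. Of the 16 members called lower, 7 had a gland B mean below the median of all values.

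**Figure D3:**
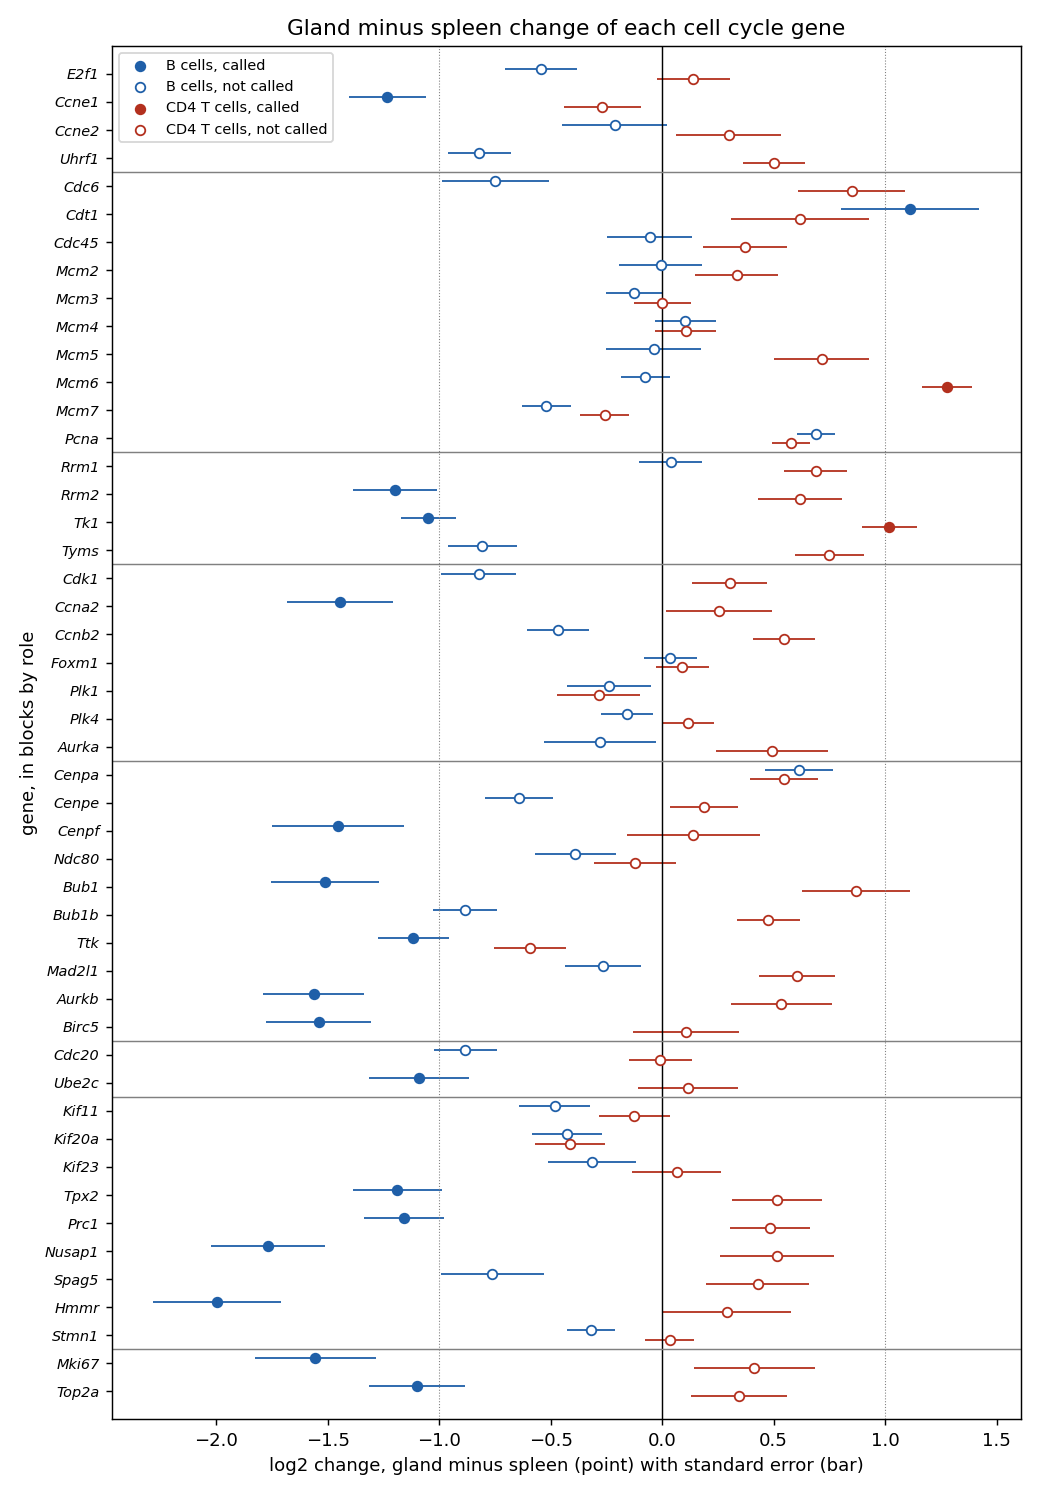
Log2 change from spleen to gland of each measured member in B cells (blue) and CD4 T cells (red), with standard errors, in blocks by role. Filled points were called, and dotted lines mark 2-fold. Called members lie left of 0 in B cells apart from Cdt1, and right of 0 in CD4 T cells.

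The same question for CD4 T cells gave few calls. Of the 48 members 2 rose in gland CD4 T cells and 0 fell, while 5.35% of all genes were called higher and 1.62% lower, so the members' share of calls was near the background. By adjusted p alone 14 members were higher and 1 lower, beside 12.7% and 10.7% of all genes. The median change was 0.34, 0.54 over the replication genes and 0.27 over the mitosis genes, against -0.03 for all genes. Adjusted p alone picked 9 of the 18 replication genes and 5 of the 30 mitosis genes as higher.

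Mcm6, a subunit of the replicative helicase, read 9.23, 9.41, 9.45 and 9.46 in gland CD4 T cells and 7.96, 8.26 and 8.10 in spleen CD4 T cells. The groups were far apart, with a change of 1.28 ± 0.11 (limma adjusted p = 3.88e-07), and Mcm6 has a single probe set. Tk1 read 6.81, 6.86, 7.02 and 7.02 in gland CD4 T and 6.11, 5.64 and 5.97 in spleen CD4 T cells, without overlap. Its change of 1.02 ± 0.12 sat at the fold limit, and the call was lost without gland CD4 T replicate 3 (0.99) or 4 (0.99), without spleen CD4 T replicate 2 (0.88) and with arrays centred on their medians (0.86).

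The other helicase genes were not called. Mcm3 stood at 0.00, Mcm4 at 0.11 and Mcm7 at -0.26, while Mcm5 stood at 0.71, below the fold limit. Mki67 read 8.42, 8.14, 8.34 and 8.49 in gland CD4 T and 7.77, 8.15 and 7.88 in spleen CD4 T cells, and Top2a read 7.50, 7.37, 7.58 and 7.56 in gland CD4 T and 6.90, 7.26 and 7.31 in spleen CD4 T cells. Mki67 overlapped at 1 array and Top2a did not overlap, and neither passed (0.41 ± 0.27, limma adjusted p = 0.332, and 0.35 ± 0.22, limma adjusted p = 0.302). Bub1 (0.87) and Cdc6 (0.85) had the next largest changes. Ttk, at -0.59, was the member lower by adjusted p alone, while its other probe set stood at 0.12 and did not pass.

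Regulatory T cell genes moved with this comparison. The 5 measured markers averaged 10.22 to 10.33 in gland CD4 T cells and 8.77 to 8.88 in spleen CD4 T cells, and 2 of them, Foxp3 and Ctla4, were called higher. Of 5 epithelial genes 4 were called higher too. Of 5 plasmablast genes 4 were higher, with a list mean of 8.07 to 8.36 in gland CD4 T against 6.19 to 6.67 in spleen CD4 T cells. Of 5 genes of red cell precursors 2 were lower, with 5.31 to 5.65 in gland CD4 T against 6.13 to 6.54 in spleen CD4 T cells. Of 6 myeloid genes 1 was higher, Cd14 at 1.42, with 4.40 to 4.58 in gland CD4 T against 3.30 to 4.12 in spleen CD4 T cells. Of 6 germinal centre genes 1 was higher, S1pr2 at 1.14, with 4.40 to 4.58 in gland CD4 T against 4.11 to 4.20 in spleen CD4 T cells. Of 8 immature B genes 1 was lower, Sox4 at -2.46, with 3.94 to 4.10 in gland CD4 T against 4.35 to 4.60 in spleen CD4 T cells. Of 3 genes of plasmacytoid dendritic cells 1 was higher and 1 lower. Their part in the members' changes was not tested.

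The change in B cells was then set against that in CD4 T cells as an interaction term. The difference was called for 22 of the 48 members, all with the lower change in B cells, where 3.87% of all genes were called lower and 1.22% higher. The median difference was -0.87, against 0.02 for all genes. By adjusted p alone 26 members were lower and 0 higher, beside 6.55% and 3.57% of all genes. Among the mitosis genes 16 of 30 were called and among the replication genes 6 of 18. The largest were Bub1 (-2.38 ± 0.34), Hmmr (-2.29 ± 0.40), Nusap1 (-2.28 ± 0.36), Aurkb (-2.10 ± 0.32), Tk1 (-2.07 ± 0.18) and Mki67 (-1.97 ± 0.38), with limma adjusted p-values between 9.93e-07 and 0.00293.

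Of the members 34 had a change below 0 in B and above 0 in CD4 T cells, and 0 had the reverse. The share of all genes with this pattern was not counted. Tk1 was called in both subsets, lower in B cells and higher in CD4 T cells. Tyms, the thymidylate synthase that makes thymidine nucleotides, was called in neither but its difference was -1.56 ± 0.22. It read 5.43, 5.92, 5.50 and 5.99 in gland B and 6.58, 6.65 and 6.31 in spleen B cells, against 8.05, 8.11, 8.54 and 8.34 in gland CD4 T and 7.37, 7.56 and 7.59 in spleen CD4 T cells. Cdt1 (0.49), Pcna (0.11) and Cenpa (0.07) lay above 0 in this difference and did not pass. With probe sets averaged, 7 of the 22 differences were no longer called: Bub1b (-0.91), Hmmr (-0.88), Uhrf1 (-0.80), Spag5 (-0.65), Cenpf (-0.62), Top2a (-0.51) and Tyms (-0.47). Leaving out 1 array ended the call of Cdk1 without spleen CD4 T replicate 1 (-0.94), and that of Ube2c without spleen B replicate 2 (-1.08) or spleen CD4 T replicate 1 (-1.14). Ccnb2 was lost without gland B replicate 1 or 3, spleen B replicate 2, gland CD4 T replicate 3 or spleen CD4 T replicate 1 (-0.98 to -0.89). Cenpf was lost without spleen B replicate 1 or 2, gland CD4 T replicate 3 or spleen CD4 T replicate 2 or 3 (-1.54 to -1.39). Spag5 was lost without gland B replicate 1 or 2, spleen B replicate 1 or 2, gland CD4 T replicate 3 or 4 or spleen CD4 T replicate 1 or 2 (-1.22 to -1.06).

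**Figure D4:**
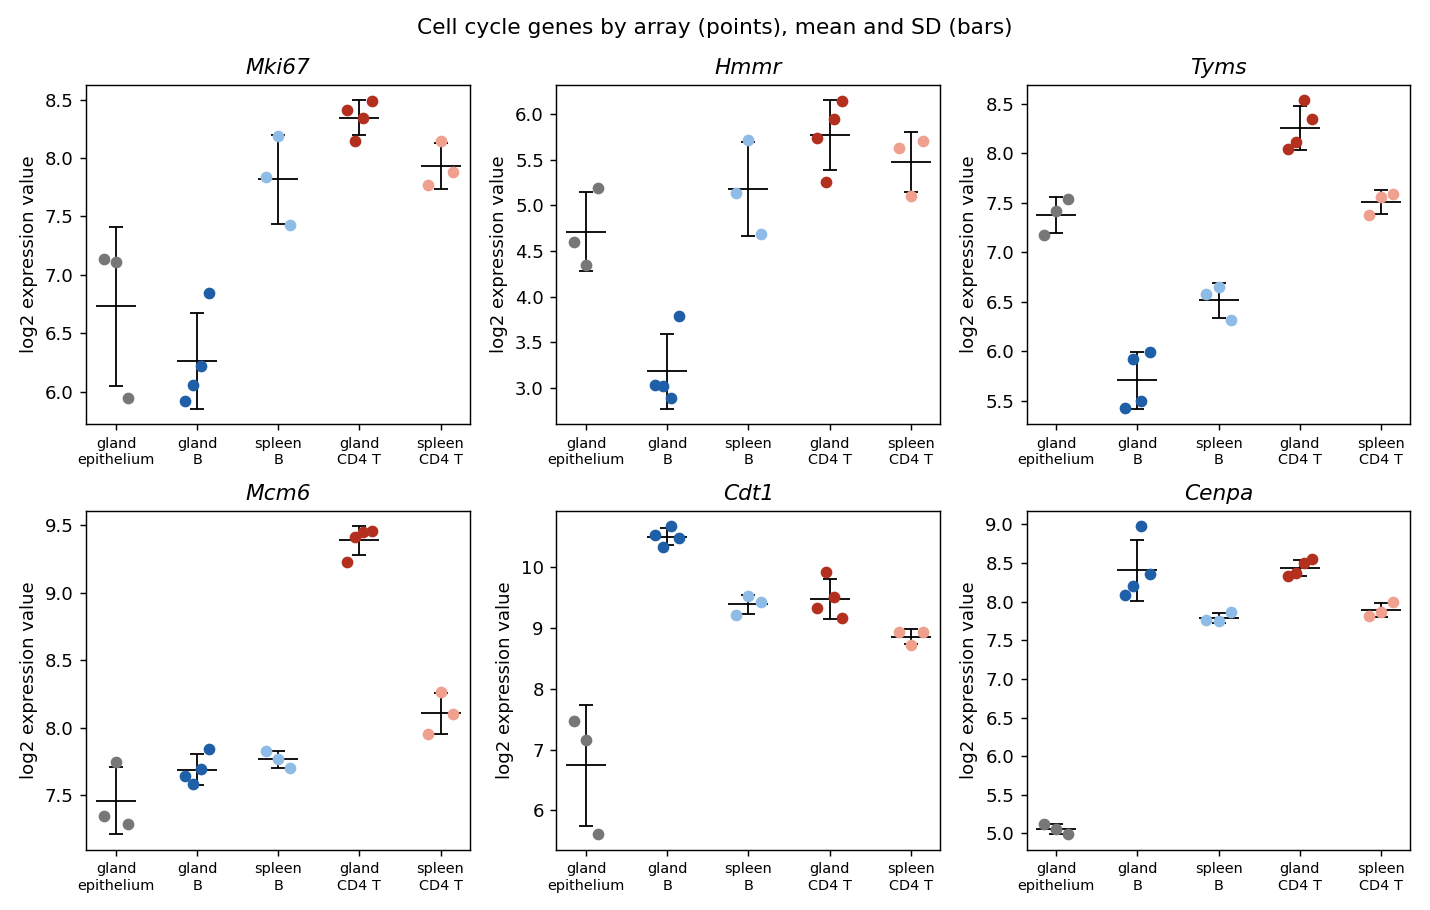
Log2 values of Mki67, Hmmr, Tyms, Mcm6, Cdt1 and Cenpa in every array, with group mean and SD. Mki67, Hmmr and Tyms are lowest in gland B among the lymphocyte groups, Mcm6 is highest in gland CD4 T cells, and Cdt1 and Cenpa are lowest in epithelium.

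Set side by side within a tissue, more members were called between the subsets in the gland than in the spleen. In the gland 18 of 48 members were lower in B than in CD4 T cells and 1 was higher, beside 5.97% and 3.73% of all genes, with a median difference of -0.68, and by adjusted p alone 31 were lower and 1 higher, beside 16.1% and 14.3%. The log2 difference was -2.58 ± 0.26 for Hmmr, -2.55 ± 0.14 for Tyms and -2.08 ± 0.25 for Mki67, and in none of these genes did the arrays overlap. With probe sets averaged, Hmmr (-0.95), Tyms (-0.83), Cenpf (-0.74), Top2a (-0.58), Spag5 (-0.55) and Cdt1 (0.79) were no longer called, and Spag5 was also lost without gland CD4 T replicate 4 (-0.99). Cdt1 was the member called higher, by 1.02 ± 0.29, and its call was also lost without gland B replicate 3 (0.96) or gland CD4 T replicate 1 (0.97) or 4 (0.92). In the spleen 2 members were higher in B than in CD4 T cells and 0 lower, beside 4.63% and 4.52% of all genes, and the median was -0.06. By adjusted p alone 6 were higher and 3 lower, beside 11.1% and 11.3%. The 2 called were Tk1 (1.90 ± 0.13) and Aurkb (1.41 ± 0.24). Mki67 averaged 7.82 ± 0.38 in spleen B and 7.93 ± 0.19 in spleen CD4 T cells (SD, n = 3 each) and did not pass (limma adjusted p = 0.868).

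Epithelial cells were compared with the mean of the gland lymphocytes. Of the 48 members 14 were lower in epithelium and 0 higher, where 10.3% of all genes were called lower and 15.2% higher, and the median was -0.48 against -0.10 for all genes. All 14 had an epithelial mean below both gland subsets, though some only just below gland B cells. Against gland B cells alone Bub1 stood at -0.03, Nusap1 at -0.11 and Mcm6 at -0.23, and none of these was called. By adjusted p alone 28 members were lower and 2 higher, beside 36.9% and 27.9%. Without epithelial replicate 1, the array with leukocyte transcripts, 12 were called. With probe sets averaged 11 were called, and Bub1 (-0.48), Nusap1 (-0.71), Spag5 (-0.53) and Top2a (-0.81) lost the call.

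The largest changes in this comparison were in Cenpa and Cdt1. Cenpa read 5.13, 5.05 and 4.99 in epithelium, against 8.09 to 8.98 in gland B and 8.33 to 8.55 in gland CD4 T cells, a change of -3.36 ± 0.14 or 10.3-fold (limma adjusted p = 3.49e-12). Cdt1 read 7.46, 7.16 and 5.61 in epithelium, against 10.32 to 10.67 in gland B and 9.16 to 9.92 in gland CD4 T cells, a change of -3.24 ± 0.28. Mcm5 read 4.90, 4.86 and 3.92 in epithelium, against 6.57 to 7.09 in gland B and 6.77 to 7.30 in gland CD4 T cells, a change of -2.35 ± 0.19. The origin and fork genes had 6 of 10 members called, Mcm3 (-1.50) and Mcm4 (-1.47) among them.

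The calls depended on the lymphocyte subset set against epithelium. Against gland B cells alone 7 members were higher in epithelium and 6 lower, beside 16.2% and 10.4% of all genes, and against gland CD4 T cells alone 0 were higher and 23 lower, beside 14.8% and 10.6%. Hmmr stood at 1.53 ± 0.29 against gland B cells and at -1.05 ± 0.29 against gland CD4 T cells, and Birc5 at 1.06 ± 0.24 and -1.15 ± 0.24. Mki67 read 7.13, 7.11 and 5.95 in epithelium, with replicate 3 within the range of gland B cells. The part of leukocyte RNA, at a list mean of 4.15 to 9.43 in the epithelial arrays, was not tested beyond leaving out replicate 1. Of 5 genes of red cell precursors 2 were called higher in epithelium, Hba-a1 at 10.97 ± 0.23, against 6.34 ± 1.07 in gland B and 6.31 ± 0.88 in gland CD4 T cells, and Alas2 at 7.19 ± 0.14, against 4.08 ± 0.17 and 3.76 ± 0.24. Of the myeloid genes 1 was called higher there, Cd14 at 3.35, and the other 5 were not called. Of the immature B genes 2 were higher, Cd93 at 5.60 and Sox4 at 4.24, while 1 was lower and 5 were not called. The part of these in the members' changes was not tested.

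Promoters are shown for the pair of mitosis genes and the pair of replication genes with the largest called changes between gland and spleen that the RefSeq promoter table holds, to show which sequence elements of the cell cycle programme lie there. Each run is 300 bases long, from 250 bases before to 50 after the gene's start, on the gene's own strand in GRCm38.p6, and capitals mark matches on either strand to TTTGAA (the CHR element), CCAAT (the CCAAT box) or the E2F words TTTCCCGC, TTTCGCGC, TTTGCCGC and TTTGGCGC. The windows lie at chr11:40733388-40733687 (minus strand) for Hmmr, chr2:119618048-119618347 (plus strand) for Nusap1, chr1:128359656-128359955 (minus strand) for Mcm6 and chr7:38107441-38107740 (minus strand) for Ccne1.
Hmmr: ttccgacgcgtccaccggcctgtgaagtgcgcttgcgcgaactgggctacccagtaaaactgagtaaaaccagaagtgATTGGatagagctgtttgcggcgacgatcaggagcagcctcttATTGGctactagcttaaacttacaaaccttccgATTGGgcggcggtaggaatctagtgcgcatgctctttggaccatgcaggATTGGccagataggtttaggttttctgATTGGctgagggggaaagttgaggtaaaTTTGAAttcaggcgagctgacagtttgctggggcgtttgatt
Nusap1: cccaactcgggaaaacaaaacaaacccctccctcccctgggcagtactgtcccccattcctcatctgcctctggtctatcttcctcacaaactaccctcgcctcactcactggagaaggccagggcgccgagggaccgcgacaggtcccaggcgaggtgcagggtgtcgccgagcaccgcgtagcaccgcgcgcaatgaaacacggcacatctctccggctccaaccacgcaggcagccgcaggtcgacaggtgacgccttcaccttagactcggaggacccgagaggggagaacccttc
Mcm6: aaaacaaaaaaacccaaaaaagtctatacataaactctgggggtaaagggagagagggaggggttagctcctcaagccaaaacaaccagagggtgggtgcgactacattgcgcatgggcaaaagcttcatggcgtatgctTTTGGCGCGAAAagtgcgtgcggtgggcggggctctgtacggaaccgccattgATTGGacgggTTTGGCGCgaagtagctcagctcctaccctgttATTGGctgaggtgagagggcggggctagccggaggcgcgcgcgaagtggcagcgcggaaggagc
Ccne1: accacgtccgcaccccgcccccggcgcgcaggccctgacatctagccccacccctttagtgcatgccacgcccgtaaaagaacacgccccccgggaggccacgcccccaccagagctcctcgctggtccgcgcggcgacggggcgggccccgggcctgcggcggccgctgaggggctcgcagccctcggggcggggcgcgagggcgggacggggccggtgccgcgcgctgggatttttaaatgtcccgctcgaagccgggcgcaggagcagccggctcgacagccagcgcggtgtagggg

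The Hmmr window held 5 CCAAT boxes and 1 CHR element, which starts 9 bases into the transcript. The Mcm6 window held 3 matches to an E2F word, of which a pair overlap, and 2 CCAAT boxes. The Nusap1 and Ccne1 windows held none of these words. Of the measured members 40 had a promoter in the table. The CHR element lay in 18 of 24 mitosis promoters (75.0%) and 2 of 16 replication promoters (12.5%), against 18.1% of the 27025 genes in the table. The E2F words lay in 1 of 24 mitosis promoters (4.17%) and 6 of 16 replication promoters (37.5%), against 2.32% of all genes. The CCAAT box lay in 19 of 24 mitosis promoters (79.2%) and 10 of 16 replication promoters (62.5%), against 37.9% of all genes. These matches describe letters in a window and were not set against the changes.

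Further genes of the same pathways were counted in the gland against spleen comparisons. Over all genes the calls in B cells were 2.58% higher and 1.60% lower, and those in CD4 T cells 5.35% higher and 1.62% lower. Of 56 measured mitosis genes outside the set, 7 fell and 1 rose in gland B cells (median -0.45), while 4 rose and 1 fell in gland CD4 T cells (median 0.20), where the counts lay near the shares of all genes. Aspm (-1.43), Cenpk (-1.36) and Cdca3 (-1.27), genes of the spindle pole, the kinetochore and the entry into mitosis, were among those lower in gland B cells. Melk, a mitotic kinase, was the gene that rose there (1.59 ± 0.38), and it rose in gland CD4 T cells too (2.16 ± 0.38). Pttg1, which encodes securin, rose in gland CD4 T cells (1.31) and so did Cks2 (1.28), a CDK subunit. Of 32 further replication genes 0 were called by limma in B cells (median -0.24). By adjusted p alone 5 of them were lower and 0 higher there, beside 9.87% and 7.79% of all genes. In CD4 T cells 1 was called, Pole2, a DNA polymerase subunit, at -1.23. Of 13 checkpoint and repair genes 3 fell in gland B cells, Wee1 (-1.16), the kinase that holds CDK1 inactive, Chek2 (-1.08) and Fanca (-1.01).

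Among G1 cyclins and their kinases, Cdk6 and Myc separated the subsets. Cdk6, a partner of D cyclins, read 6.35, 6.12, 6.37 and 6.54 in gland B and 7.68, 7.62 and 7.83 in spleen B cells (-1.36 ± 0.12), and stood at 0.70 in CD4 T cells, where it did not reach the fold limit, and the difference was -2.06 ± 0.17 (limma adjusted p = 8.33e-07). Myc, a driver of cell growth, read 7.83, 8.38, 8.70 and 8.49 in gland B and 6.67, 6.66 and 6.77 in spleen B cells. In CD4 T cells Myc read 6.43, 5.23, 6.36 and 6.61 in the gland and 6.90, 7.88 and 7.33 in the spleen. Myc rose in gland B cells (1.65 ± 0.33) and fell in gland CD4 T cells (-1.21 ± 0.33), and the difference was 2.87 ± 0.47 (limma adjusted p = 0.000733). Cdk7, the CDK-activating kinase, fell by 1.11 on the log2 scale in both subsets. The D cyclin Ccnd3 stood at -0.55 in B and -0.63 in CD4 T cells, and Ccnd2 at 0.53 and -0.21. Ccnd1 was 3.27 ± 0.21 higher in epithelium than in the gland lymphocytes.

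Of 7 CDK inhibitors 1 rose in gland B cells and 2 in gland CD4 T cells, beside 2.58% and 5.35% of all genes. Cdkn1a, which encodes p21, read 7.11, 6.93, 8.16 and 7.01 in gland B and 5.64, 5.70 and 6.14 in spleen B cells, a change of 1.48 ± 0.37. It read 8.07, 9.44, 8.38 and 7.73 in gland CD4 T and 3.74, 4.78 and 4.50 in spleen CD4 T cells, a change of 4.07 ± 0.37 or 16.8-fold (limma adjusted p = 6.55e-07). The gland and spleen arrays did not overlap in either subset, and the change in B cells minus that in CD4 T cells was -2.59 ± 0.52. Cdkn2b, which encodes p15, read 4.59, 4.41, 5.46 and 5.38 in gland CD4 T and 3.17, 2.88 and 2.39 in spleen CD4 T cells (2.14 ± 0.30), and stood at 0.19 in B cells. Cdkn1b, which encodes p27, stood at 0.07 in B and -0.10 in CD4 T cells, and neither passed.

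Of 14 antiproliferative and quiescence genes 5 rose in gland B cells and 2 in gland CD4 T cells, and 0 fell in either, where all genes gave 2.58% and 5.35% higher. In B cells the largest changes were those of Klf2 (1.44), a factor of lymphocyte quiescence, Tob1 (1.34), Gadd45b (1.33) and Gadd45a (1.30). Gadd45b, a stress-response gene, reached 3.21 ± 0.16 in CD4 T cells and Gadd45a 1.40 ± 0.26. Of 16 E2F, Rb and DREAM factors 1 fell in gland B cells, the repressor E2f8 (-1.02), and 0 were called by limma in CD4 T cells. Changes below the fold limit are not excluded by this. The retinoblastoma gene Rb1 stood at -0.14 in B and 0.02 in CD4 T cells, neither passing. Enzymatic digestion was stated for the gland alone, and its part in these stress-related genes was not tested.

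**Figure D5:**
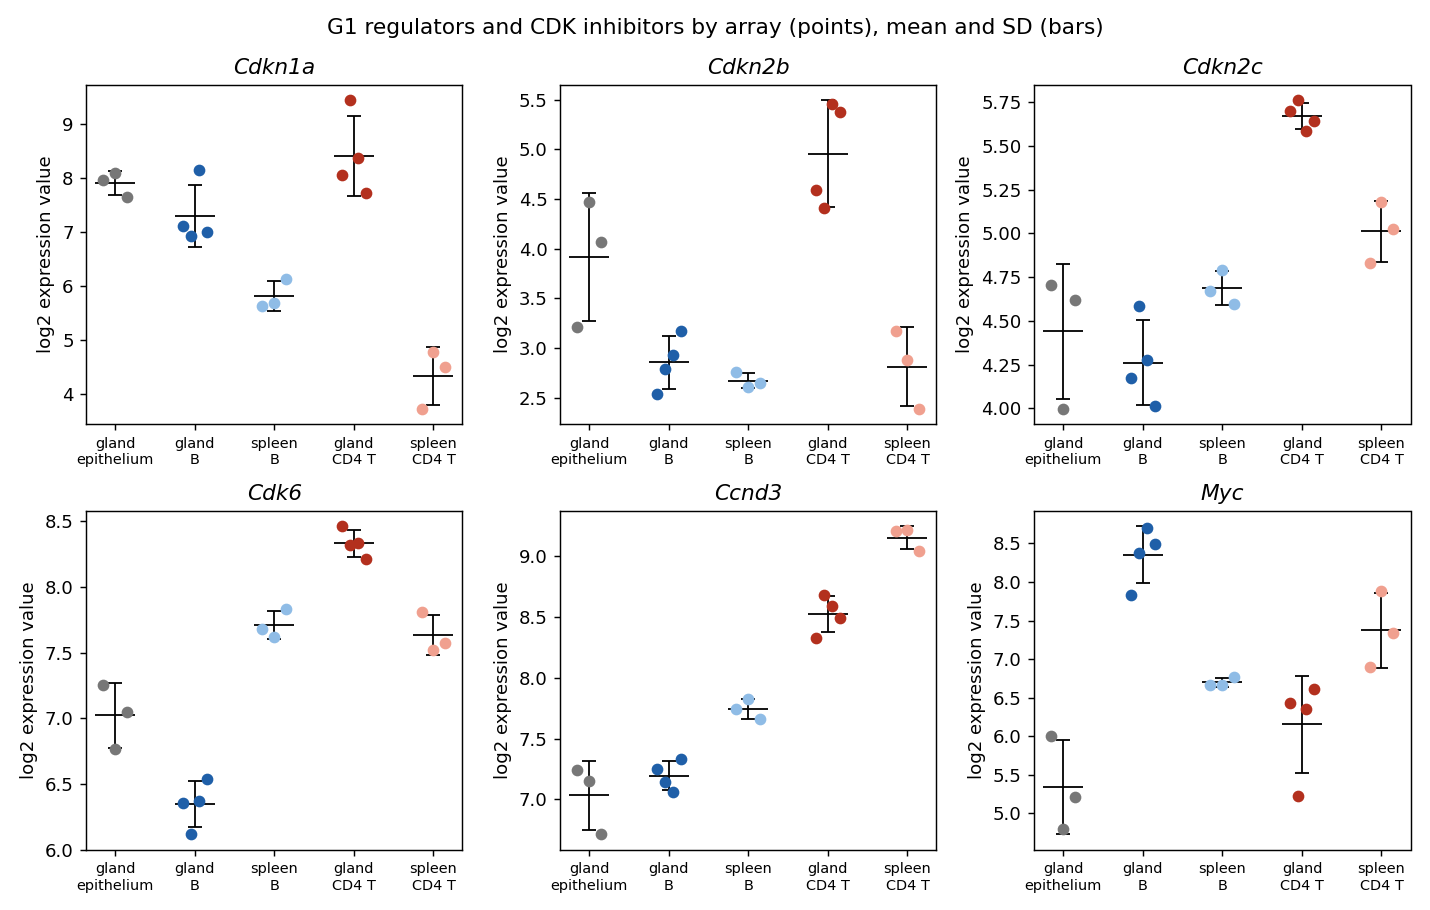
Log2 values of the CDK inhibitors Cdkn1a, Cdkn2b and Cdkn2c and of Cdk6, Ccnd3 and Myc in every array, with group mean and SD. Cdkn1a is higher in the gland in both subsets, Cdkn2b in gland CD4 T cells, and Cdk6 is lowest in gland B cells.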

How the data were processed

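RNA of sorted cells (purity above 99% per the design text) was amplified and hybridised to Affymetrix arrays. The authors deposited log2 values made with Partek and RMA, per the submitters' processing notes, with no versions given in the sources used here. RMA adjusts background and normalizes arrays together, which compresses low values. An RNA integrity number above 8 is stated for all but 3 samples, which the labels do not match to arrays. Of 45141 probe sets on 17 arrays, 28898 named exactly 1 gene. Each gene was read from its probe set with the highest mean, which gave 17097 genes. The number of arrays limits the precision. Means of the 5 groups were fitted with limma 3.58.1 (R 4.3.3), with p-values adjusted by Benjamini-Hochberg over all genes. On simulated data at a log2 shift of 1, 92% of 200 shifted genes were recovered for gland against spleen B cells, 90% for CD4 T cells and 71% for the difference. Recovery was judged by adjusted p and direction, without the fold limit. The median estimates there were 1.005, 1.009 and 0.997, at the fold limit itself, so the calls used here would recover fewer genes of that shift. Members and lists were chosen with earlier results of these data known. Array values are given for Mki67, Top2a and up to 3 called members per role with the largest changes, and up to 4 called genes are named per further list, with CDK inhibitors, D cyclins and E2F and Rb genes allowed without a call. Members under the fold limit, and array values of further genes, were chosen after their values were seen. Alternatives were the probe set, filter, normalization, fold limit, array weights, settings of the variance fit, samples in the fit, replicate block and leaving out each array.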

Additional observations from a re-analysis of the deposited data

Results flagged for a closer look

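Single arrays stood apart from the rest of their group in 6 of the 96 member values tested in groups of 4 arrays, where chance alone gives about 5% of groups. Hmmr in gland B replicate 4 was 3.79 (others 2.90 to 3.03), and Plk1 in gland B replicate 3 was 4.07 (others 4.56 to 4.62). In gland CD4 T cells Mcm4 was 9.40 in replicate 2 (others 9.73 to 9.78), and Aurka was 5.87 in the same array (others 5.34 to 5.41). Foxm1 in gland CD4 T replicate 3 was 5.77 (others 5.53 to 5.57), and Bub1b in gland CD4 T replicate 4 was 6.10 (others 5.86 to 5.88).

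The gland change differed between B and CD4 T cells in 22 members, by limma's interaction term. On the log2 scale, as B minus CD4 T, it was -2.38 for Bub1, -2.29 for Hmmr, -2.28 for Nusap1, -2.10 for Aurkb, -2.07 for Tk1, -1.97 for Mki67, -1.82 for Rrm2 and -1.70 for both Ccna2 and Tpx2. Further values were -1.65 for Birc5, -1.64 for Prc1, -1.60 for Cdc6, -1.59 for Cenpf, -1.56 for Tyms, -1.44 for Top2a, -1.36 for Bub1b and -1.35 for Mcm6. The smallest were -1.32 for Uhrf1, -1.21 for Ube2c, -1.19 for Spag5, -1.13 for Cdk1 and -1.01 for Ccnb2.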

How the results depend on the processing

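Single-gene results were counted for members and comparisons that were called in the main fit or changed by some alternative. Of these, 2671 kept their side of the threshold, 114 became called and 97 lost the call. The other 2 changed direction and were called only in the alternative. A change of direction in a value that neither setting called was counted as kept. The 2 reversals were made by comparing epithelium with 1 lymphocyte subset, chosen after seeing the data: Birc5 stood at 1.06 against gland B cells and Hmmr at -1.05 against gland CD4 T cells, where 23 members were called. Neither gene was called in the main comparison with the mean of the gland lymphocytes. With no fold limit, 31 members were called in gland against spleen B cells, 15 in CD4 T cells, 30 in epithelium, 32 between gland B and CD4 T cells and 9 between spleen B and CD4 T cells. Averaged probe sets left 8 calls in B cells. In CD4 T cells 1 member was called after median centring, after quantile normalization, with the replicate block, and without gland CD4 T replicate 3 or 4 or spleen CD4 T replicate 2. Leaving out each array gave 13 to 17 calls in B cells, 1 to 3 in CD4 T cells, 18 to 22 for the difference, 12 to 16 in epithelium, 17 to 19 between gland subsets and 2 to 3 between spleen subsets. Same-numbered arrays correlated at -0.397 to 0.215 in their deviations. This gave no sign that the numbers pair the samples, but so few arrays per group cannot exclude it. The median standard error for gland against spleen was 0.121 over all genes. Single members differed from it, with 0.11 for Mcm6, 0.27 for Mki67 and 0.31 for Cdt1. These errors limit what the arrays resolve, and low values may lie near background.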
